A study of Homo sapiens with 6 samples.

Results

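The genes described here act upstream of the Hippo kinase cascade or beside it. They are the KIBRA family and FRMD6, the TAO and MAP4 kinases, the subunits of the STRIPAK phosphatase complex, the Ajuba LIM adaptors, the FAT and Dachsous cadherins, the Scribble polarity module, LKB1 and its MARK targets, and the enzymes that mark YAP for breakdown. They were taken by name, 42 genes of the 60683 rows of the deposited count table, and each symbol matched a single Ensembl identifier. All 42 passed the filter on low counts, and over these genes and the libraries the counts ran from 94 to 6964 reads. Messenger RNA was sequenced from 143B, an established human line of osteosarcoma cells that descends from HOS, in 3 libraries given TPBC-PEG for 24 h and 3 libraries given PBS for 24 h. The series title names photodynamic therapy and Hippo signalling, and the libraries show how the upstream side of that pathway differed under TPBC-PEG. The dose is uncertain, since the titles state 3 µM and the treatment text 300 µM, and no label mentions light exposure. No label speaks of separate cultures either, so each p-value reflects the spread among these libraries, which may be technical.

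In the Hippo pathway, the kinases MST1 and MST2 activate LATS1 and LATS2, which phosphorylate the coactivators YAP and TAZ and keep them out of the nucleus. KIBRA, merlin and the TAO kinases raise the activity of this cascade, and the MAP4 kinases act on LATS in parallel to MST1 and MST2. STRIPAK is a PP2A phosphatase built on striatin scaffolds that removes the activating phosphate from MST1 and MST2, and the Ajuba proteins hold LATS in check at cell junctions. The cadherins and the Scribble module tie the cascade to cell contact and polarity; the role of Fat in Hippo signalling was first worked out in Drosophila.

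Library totals ran from 15726323 to 20486584 counts, and Pearson's r of log2 CPM (counts scaled to the library by TMM) across genes was 0.992 to 0.993 within groups and 0.985 to 0.988 between them. Of 8 mesenchymal and osteosarcoma markers 7 reached 1 CPM, with vimentin (VIM) at 2344 ± 48.5 in TPBC-PEG and 2577 ± 22.6 in PBS (mean ± SD, n = 3), while COL1A2 was near 0. Of 6 epithelial markers 4 did, keratin genes KRT18 and KRT8 being the most abundant. Their summed level was 680.1 to 743 CPM in TPBC-PEG and 903 to 943 in PBS, and the epithelial cadherin gene CDH1 was at 0.0825 ± 0.0744 in TPBC-PEG and 0.0210 ± 0.0364 in PBS. The sums of the mesenchymal list were 2845 to 2958 in TPBC-PEG and 3138 to 3183 in PBS, so both sums were lower in every TPBC-PEG library, although the mesenchymal genes RUNX2, SPP1, CDH2 and TWIST1 averaged higher there. Their part in the results below was not tested. The 5 haematopoietic markers summed to at most 0.241 in TPBC-PEG and 0.222 in PBS, and the 4 endothelial markers to at most 1.16 and 1.14 in the same order of groups.

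Of the 42 genes 6 were higher and 8 lower in TPBC-PEG, and the cadherins FAT4 and FAT1 showed the largest rise and the largest fall. FAT4, STRIP2, TAOK3, CTTNBP2NL, STRN3 and FRMD6 rose, and FAT1, SCRIB, MINK1, STK25, WWC1, LLGL1, STRN4 and DLG1 fell (edgeR quasi-likelihood test, Benjamini-Hochberg adjusted p under 0.05 over 15846 genes). The same test called 33.2% of all genes tested, 16.2% higher and 16.9% lower, so the 14 calls, 33.3% of the 42, are a share near the background. The changes were small: the called genes had a median absolute log2 fold change of 0.18, against 0.29 for all called genes, and the largest, that of FAT4, was a rise of 32.9%. The 42 genes had a median of 70.8 CPM, against 19.5 CPM over all genes tested. Shares called and fold changes were therefore not compared at like levels. The median log2 fold change was -0.022 over the 42 genes and 0.011 over all genes tested. The TPBC-PEG and PBS libraries took separate ranges in 17 of the 42 genes, as they did in 43.4% of all genes tested. In a bulk sample, fewer cells with a transcript and less of it per cell cannot be told apart.

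**Figure D1:**
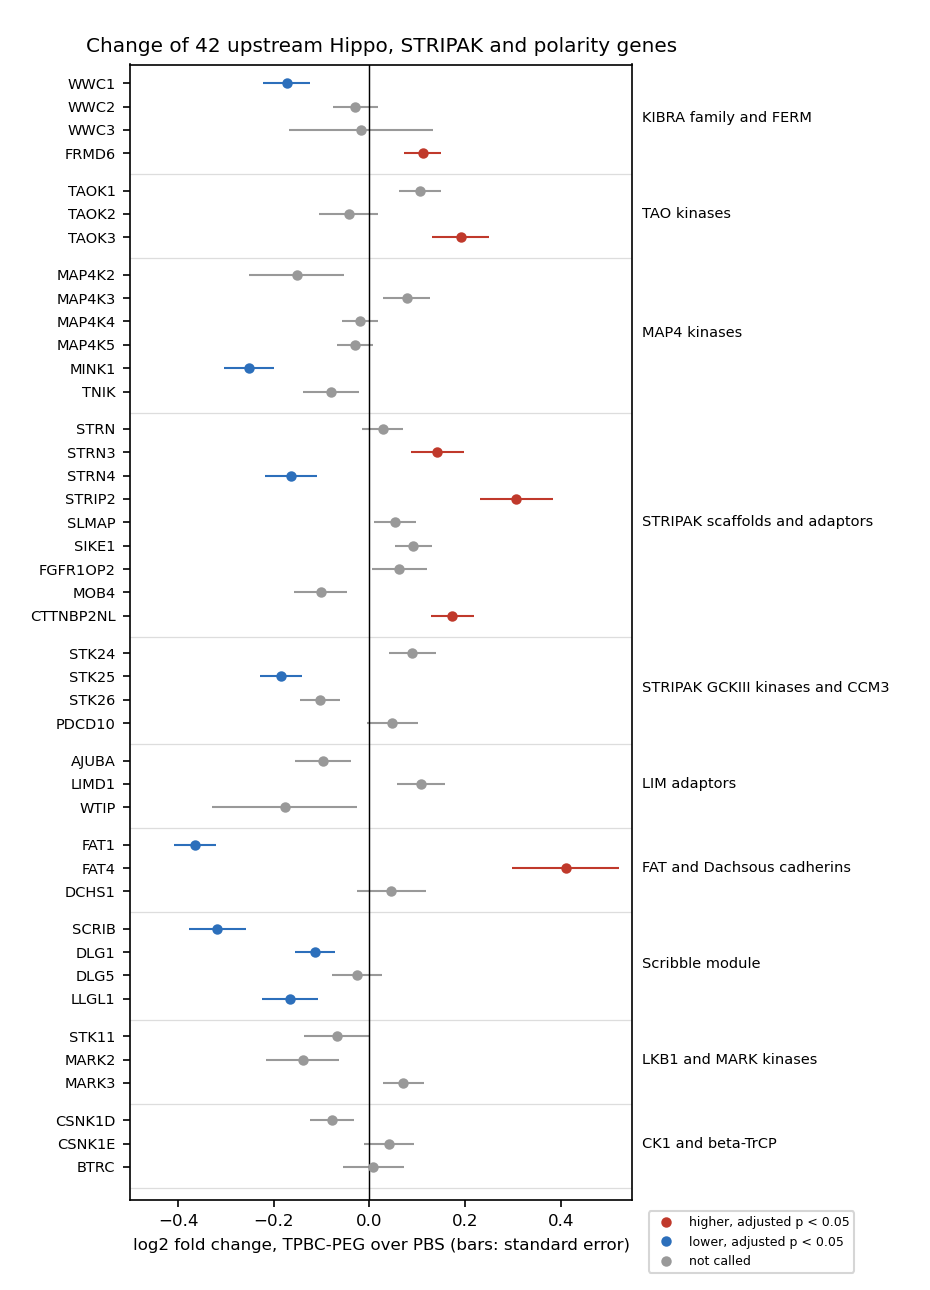
Log2 fold change of TPBC-PEG over PBS (x axis) for each of the 42 genes (y axis), grouped by role, with points at the estimate and bars of 1 standard error. Red points are the 6 genes that were higher and blue points the 8 that were lower at an adjusted p under 0.05; FAT4 at 0.41 and FAT1 at -0.37 lie farthest from 0.

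FAT1 and FAT4 encode giant atypical cadherins, and DCHS1 the Dachsous cadherin that binds FAT4 on the neighbouring cell. FAT1 (ENSG00000083857, chromosome 4, 186587783 to 186726722 in GRCh38) had 166, 171 and 190.4 CPM in the TPBC-PEG libraries, against 225, 237 and 216 CPM in the PBS libraries. All 3 TPBC-PEG values lay below all PBS values, and FAT1 fell at a log2 fold change of -0.37 ± 0.044 (SE; edgeR quasi-likelihood, Benjamini-Hochberg adjusted p = 1.79e-08). FAT4 (ENSG00000196159, chromosome 4, 125316399 to 125492932) had 12.6, 11.1 and 12.7 CPM in TPBC-PEG, against 9.39, 8.76 and 9.21 CPM in PBS. The groups did not overlap, and FAT4 rose by 0.41 ± 0.11 (SE; edgeR quasi-likelihood, Benjamini-Hochberg adjusted p = 0.00306). DCHS1 stood at 27.2 ± 1.24 CPM in TPBC-PEG and 26.3 ± 0.405 CPM in PBS (mean ± SD, n = 3) and was not called, with a 95% interval of the log2 difference from -0.10 to 0.19. Per kilobase of exon, FAT1 was the far more abundant of the 2 FAT genes, at 10.9 CPM per kb in TPBC-PEG and 13.97 CPM per kb in PBS, while FAT4 had 0.739 CPM per kb in TPBC-PEG and 0.555 in PBS. Within each library, where scaling has no influence, FAT4 took 6.38% ± 0.503 of the summed level of both genes per kilobase in TPBC-PEG and 3.82% ± 0.278 in PBS (SD, n = 3), without overlap between the groups.

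The stretches before the transcription start of the called genes with the largest rise and fall in the RefSeq promoter table, STRIP2 and FAT1, are shown because these genes moved in opposite directions. STRIP2, a STRIPAK scaffold gene, is at chr7:129434182-129434431 on the plus strand and FAT1 at chr4:186726697-186726946 on the minus strand (RefSeq, GRCh38.p14), each 250 bases, 5′ to 3′. Capitals mark matches, on either strand, to CCAAT (the CCAAT box), GGGCGG (the GC box bound by Sp1) and TGACGTCA (the cyclic AMP response element).
STRIP2: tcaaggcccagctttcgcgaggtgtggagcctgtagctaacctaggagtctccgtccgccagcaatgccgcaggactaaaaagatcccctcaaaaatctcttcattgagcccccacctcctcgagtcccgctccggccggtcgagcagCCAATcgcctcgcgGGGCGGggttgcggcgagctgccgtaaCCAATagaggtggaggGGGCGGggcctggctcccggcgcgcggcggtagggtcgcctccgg
FAT1: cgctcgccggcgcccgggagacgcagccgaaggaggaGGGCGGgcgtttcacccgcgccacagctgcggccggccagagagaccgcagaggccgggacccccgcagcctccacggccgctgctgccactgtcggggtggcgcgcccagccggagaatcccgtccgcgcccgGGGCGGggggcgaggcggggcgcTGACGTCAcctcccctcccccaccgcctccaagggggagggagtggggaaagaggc
The STRIP2 stretch held 2 CCAAT boxes and 2 GC boxes at 66.4% GC, and the FAT1 stretch 2 GC boxes and the cyclic AMP response element at 78% GC.

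Promoters of 34 of the 42 genes were in that table, 5 of genes that rose and 6 of genes that fell. The GC box stood in 26 of the 34, and in 42.6% of all 35116 promoters of the same length. Of those 26, 3 were of genes that rose and 6 of genes that fell. The 35116 promoters outnumber the 15846 genes tested and were not matched to the 34 in expression level. CCAAT was found in 8 of the 34, 4 of them of genes that rose and 1 of a gene that fell, and in 32.0% of all promoters. The letters bound by TEAD factors (GGAATG) were found before SLMAP, WTIP and WWC2, 3 of the 34, and in 11.9% of all promoters. CACGTG (the E-box) was found before DLG1, SLMAP and STK25 and in 6.34% of all promoters, and TGACGTCA before FAT1 and in 1.65%. Of the E-box matches 2 were of genes that fell and 0 of genes that rose. With 5 and 6 genes these splits by direction are descriptions, and they were not counted over all called genes. No match to TGATGNAA, letters of the ATF4 and C/EBP composite site, or to TGANTCA, those of AP-1, was in the 34 windows, and these were in 3.14% and 6.57% of all promoters. Both strands were searched. The 34 windows had a median GC of 69.2%, against 58% for all promoters, and the motif shares are descriptions of letters, not of binding.

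**Figure D2:**
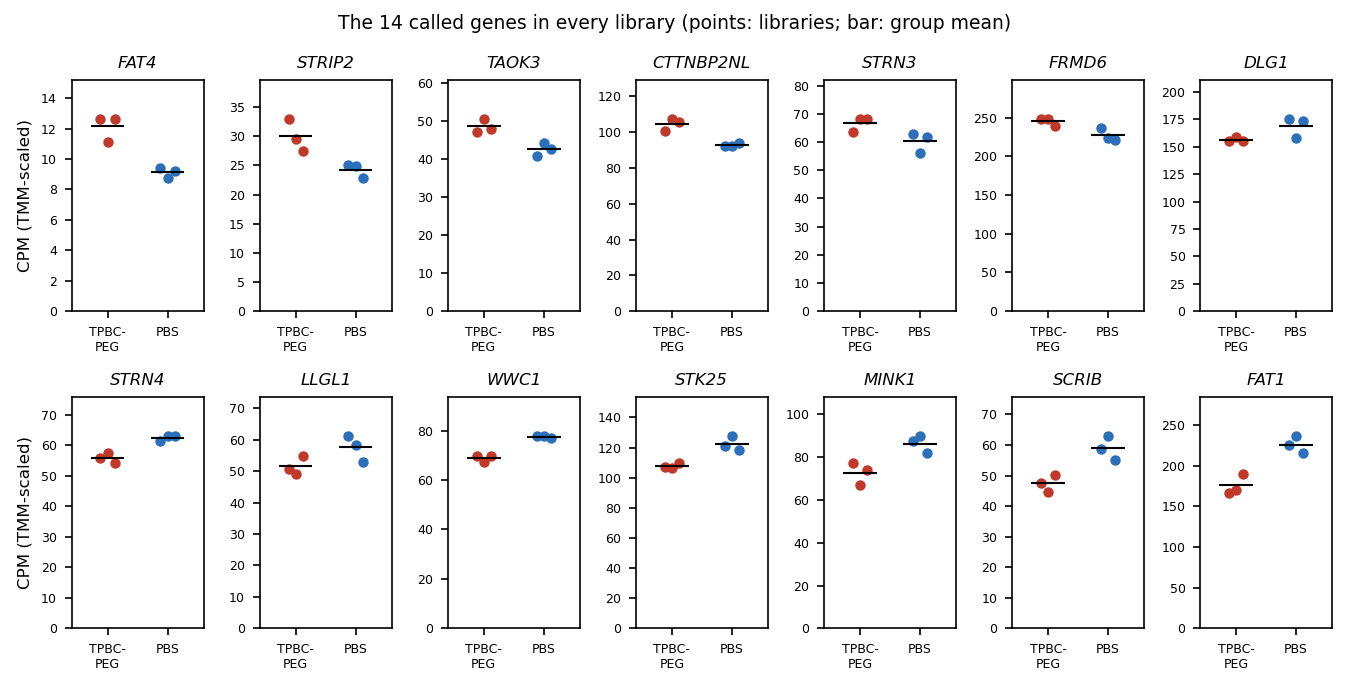
CPM (y axis, TMM-scaled, from 0) of the 14 called genes in each of the 3 TPBC-PEG libraries (left, red) and 3 PBS libraries (right, blue), with the group mean as a bar. The groups overlap for DLG1 and LLGL1 and lie apart for the other 12, from FAT4 at 12.1 against 9.12 CPM to FAT1 at 176 against 226 CPM on average, TPBC-PEG first.

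Among the Scribble module genes, which set the basolateral side of polarised cells, 3 of 4 fell and 0 rose, against 16.9% of all genes tested called lower. With 4 genes this count is a description, and of the 3 calls that of SCRIB held when any library was left out, while those of LLGL1 and DLG1 did not. SCRIB, the Scribble scaffold, had 47.5, 44.5 and 50.1 CPM in TPBC-PEG, against 58.5, 63.0 and 55.2 CPM in PBS. The groups lay apart, with a log2 fold change of -0.32 ± 0.059 (SE; edgeR quasi-likelihood, Benjamini-Hochberg adjusted p = 2.68e-05). LLGL1, a homologue of the Drosophila tumour suppressor lethal giant larvae, had 50.7, 49.0 and 54.8 CPM in TPBC-PEG, against 61.2, 58.4 and 53.0 CPM in PBS. Here the highest TPBC-PEG library stood above the lowest PBS library, and the log2 fold change was -0.17 ± 0.059 (SE; edgeR quasi-likelihood, Benjamini-Hochberg adjusted p = 0.0255). DLG1, a membrane-associated guanylate kinase homologue, had 155, 159 and 155 CPM in TPBC-PEG, against 176, 158 and 174 CPM in PBS. PBS replicate 2 lay within the TPBC-PEG range, and the log2 fold change was -0.11 ± 0.042 (SE; edgeR quasi-likelihood, Benjamini-Hochberg adjusted p = 0.0309). DLG5, a paralogue of DLG1, averaged 64.8 ± 3.31 CPM in TPBC-PEG and 65.9 ± 1.46 CPM in PBS and was not called (95% interval of the log2 difference -0.13 to 0.081). The LLGL1 call was lost without TPBC-PEG replicate 1 or 2 and without PBS replicate 1 or 2 (edgeR adjusted p = 0.0879, 0.158, 0.149 and 0.0627), and the DLG1 call without any TPBC-PEG replicate 1, 2 or 3 and without PBS replicate 1 or 3 (edgeR adjusted p = 0.105, 0.0533, 0.0781, 0.134 and 0.112). Over all settings but the 1.5-fold test, the adjusted p ran up to 0.172 for LLGL1, 0.310 for DLG1 and 0.00168 for SCRIB (edgeR, DESeq2 or limma-voom).

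LKB1, encoded by STK11, is the kinase that activates the MARK family, which are polarity kinases themselves. None of these 3 genes was called, where 33.2% of all genes tested were. MARK2, with the smallest p of the group, had 26.9, 25.8 and 27.6 CPM in TPBC-PEG, against 32.3, 25.7 and 30.2 CPM in PBS. PBS replicate 2 was the lowest of the 6, and the log2 difference was -0.14 ± 0.077 (SE; edgeR quasi-likelihood, Benjamini-Hochberg adjusted p = 0.166). Without that library MARK2 passed at -0.23 (edgeR adjusted p = 0.0228). STK11 averaged 33.4 ± 0.327 CPM in TPBC-PEG and 35.0 ± 2.79 CPM in PBS, and MARK3 118 ± 2.04 CPM in TPBC-PEG and 113 ± 3.63 CPM in PBS.

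Of 13 STRIPAK members 3 rose and 2 fell. These 38.5% called are a share near that of all genes tested, 33.2%, with 16.2% higher and 16.9% lower. STRIP2 (ENSG00000128578, chromosome 7, 129434433 to 129488399), the STRIPAK scaffold gene shown above by its promoter, had 33.0, 29.5 and 27.5 CPM in TPBC-PEG, against 25.0, 24.8 and 22.9 CPM in PBS. Every TPBC-PEG library was above every PBS library, and STRIP2 rose by 0.31 ± 0.076 (SE; edgeR quasi-likelihood, Benjamini-Hochberg adjusted p = 0.00122). CTTNBP2NL, a cortactin-binding subunit, had 101, 108 and 106 CPM in TPBC-PEG, against 92.4, 92.4 and 94.0 CPM in PBS. The groups lay apart, and CTTNBP2NL rose by 0.17 ± 0.046 (SE; edgeR quasi-likelihood, Benjamini-Hochberg adjusted p = 0.00216). MOB4, SIKE1, SLMAP and FGFR1OP2 were not called. SLMAP is the adaptor whose forkhead-associated domain docks phosphorylated MST1 and MST2, and SIKE1 links it to the striatins. SIKE1 had 221, 222 and 209 CPM in TPBC-PEG, against 208, 201 and 202 CPM in PBS, and missed the threshold at 0.092 ± 0.039 (SE; edgeR quasi-likelihood, Benjamini-Hochberg adjusted p = 0.0613). Of the fits that leave out a library, it passed in the 1 without TPBC-PEG replicate 3, at 0.12 (edgeR adjusted p = 0.0271). SIKE1 also passed with library size alone, upper quartile scaling, the trend on expression level removed, and protein-coding genes alone (edgeR adjusted p = 0.00464, 0.0475, 0.00106 and 0.0316). SLMAP averaged 116 ± 3.33 CPM in TPBC-PEG and 111 ± 3.24 CPM in PBS, with a 95% interval of the log2 difference from -0.034 to 0.14. FGFR1OP2, the paralogue of SIKE1, averaged 56.3 ± 2.66 CPM in TPBC-PEG and 54.0 ± 3.23 CPM in PBS. MOB4, also called phocein, averaged 51.1 ± 0.694 CPM in TPBC-PEG and 54.8 ± 1.13 CPM in PBS.

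The striatin genes, whose products are the PP2A regulatory subunits of STRIPAK, moved apart. STRN3 had 63.4, 68.3 and 67.98 CPM in TPBC-PEG, against 62.8, 56.2 and 61.9 CPM in PBS, and rose by 0.14 ± 0.055 (SE; edgeR quasi-likelihood, Benjamini-Hochberg adjusted p = 0.0396). The lowest TPBC-PEG library was close to the highest PBS library. STRN4 had 55.8, 57.4 and 54.1 CPM in TPBC-PEG, against 61.5, 63.0 and 63.1 CPM in PBS, with a log2 fold change of -0.16 ± 0.054 (SE; edgeR quasi-likelihood, Benjamini-Hochberg adjusted p = 0.0149). STRN averaged 133 ± 0.315 CPM in TPBC-PEG and 131 ± 5.28 CPM in PBS and was not called. As a share of the 3 striatins per kilobase within a library, STRN3 took 36.5% ± 0.938 in TPBC-PEG and 33.7% ± 1.28 in PBS, STRN4 19.9% ± 0.5602 in TPBC-PEG and 22.8% ± 0.939 in PBS, and STRN 43.5% ± 0.688 in TPBC-PEG and 43.5% ± 1.13 in PBS (SD, n = 3). The shares of STRN3 and STRN4 did not overlap between the groups, and STRN stayed the most abundant striatin transcript in all 6 libraries. The STRN3 call was lost without TPBC-PEG replicate 2 or 3 and without PBS replicate 2 or 3 (edgeR adjusted p = 0.165, 0.117, 0.250 and 0.0517), and the STRN4 call without TPBC-PEG replicate 3 (0.0575). With the trend on GC content removed neither passed, at 0.10 for STRN3 and -0.092 for STRN4 (edgeR adjusted p = 0.134 and 0.178); over all settings but the 1.5-fold test the adjusted p ran from 0.00689 to 0.250 for STRN3 and from 0.0115 to 0.178 for STRN4.

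The germinal centre kinases STK24, STK25 and STK26 join STRIPAK through PDCD10, the cerebral cavernous malformation protein CCM3. Of these 4 genes 1 was called, or 25%, against 33.2% of all genes tested. STK25 had 107, 106 and 110.1 CPM in TPBC-PEG, against 121, 128 and 118 CPM in PBS. The groups lay apart, and the log2 fold change was -0.19 ± 0.044 (SE; edgeR quasi-likelihood, Benjamini-Hochberg adjusted p = 0.000773). STK25 shares 14.4% of its exon length with FARP2 on the other strand, which averaged 59.1 ± 2.43 CPM in TPBC-PEG and 61.1 ± 1.37 CPM in PBS and was not called. STK26, the most abundant of the 3 kinase genes per kilobase, had 145, 139.9 and 131 CPM in TPBC-PEG, against 147, 152 and 149 CPM in PBS. The groups did not overlap, but it missed the threshold at -0.10 ± 0.042 (SE; edgeR quasi-likelihood, Benjamini-Hochberg adjusted p = 0.0565). STK26 passed without TPBC-PEG replicate 1 or PBS replicate 1 (edgeR adjusted p = 0.0291 and 0.0454), and with the GC trend removed at -0.16 (0.000759). STK24 averaged 87.5 ± 1.89 CPM in TPBC-PEG and 82.4 ± 5.37 CPM in PBS and passed only without PBS replicate 3 or with library size alone (edgeR adjusted p = 0.0438 and 0.0309). It shares 63.5% of its exon length with FARP1 on the other strand, so its counts are uncertain where strand was ignored. PDCD10 averaged 75.8 ± 5.45 CPM in TPBC-PEG and 73.4 ± 3.47 CPM in PBS.

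**Figure D3:**
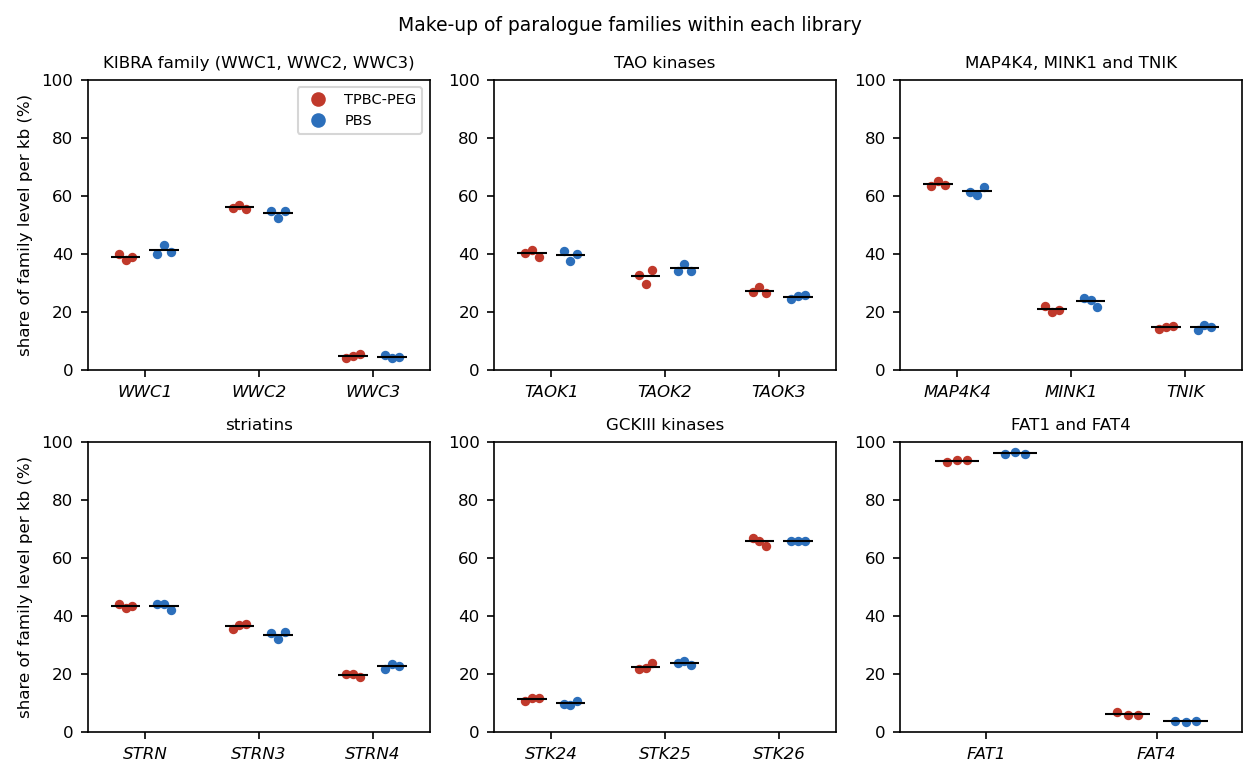
Share of each paralogue in the summed level of its family per kilobase of exon (y axis, percent of the family within a library) for 6 families, with the 3 TPBC-PEG libraries in red to the left of the 3 PBS libraries in blue and bars at the means. STRN3 is higher (36.5% against 33.7%) and STRN4 lower (19.9% against 22.8%) in TPBC-PEG without overlap, while the leading paralogue of each family is the same in both groups.

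KIBRA, encoded by WWC1, is a scaffold that works with merlin to activate LATS, and FRMD6 is the human relative of Drosophila Expanded. WWC1 had 69.5, 67.4 and 69.7 CPM in TPBC-PEG, against 77.8, 77.9 and 77.0 CPM in PBS. The replicates of each group lay close together without overlap between the groups, and the log2 fold change was -0.17 ± 0.050 (SE; edgeR quasi-likelihood, Benjamini-Hochberg adjusted p = 0.00506). Over all settings but the 1.5-fold test the adjusted p of WWC1 ran from 0.0032 to 0.0422, the highest with library size alone (edgeR, DESeq2 or limma-voom). Its paralogues WWC2 and WWC3 were not called. WWC2 averaged 98.2 ± 2.07 CPM in TPBC-PEG and 100.3 ± 5.72 CPM in PBS, and WWC3 6.12 ± 0.889 CPM in TPBC-PEG and 6.15 ± 0.749 CPM in PBS. WWC2 was the most abundant of the 3 per kilobase, although 25.9% of its exon length overlaps CLDN22, which had 0 counts in all 6 libraries. The exons of CLDN22 lie wholly within those of WWC2, so this 0 cannot show how reads there were counted. FRMD6 had 248, 249 and 239 CPM in TPBC-PEG, against 237, 223 and 221 CPM in PBS, and rose by 0.11 ± 0.038 (SE; edgeR quasi-likelihood, Benjamini-Hochberg adjusted p = 0.0200). The groups did not overlap, but the gap between TPBC-PEG replicate 3 and PBS replicate 1 was small. The FRMD6 call was lost without TPBC-PEG replicate 1 or 2 and without PBS replicate 2 or 3 (edgeR adjusted p = 0.0953, 0.0966, 0.0661 and 0.109) and with the GC trend removed (0.115); over all settings but the 1.5-fold test it ran from 0.000168 to 0.115.

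The TAO kinases phosphorylate MST1 and MST2, and 1 of their 3 genes rose (33.3% called, near the 33.2% of all genes tested). TAOK3 had 47.1, 50.8 and 48.1 CPM in TPBC-PEG, against 41.0, 44.3 and 42.8 CPM in PBS. The groups lay apart, and TAOK3 rose by 0.19 ± 0.060 (SE; edgeR quasi-likelihood, Benjamini-Hochberg adjusted p = 0.0110). The call was lost without TPBC-PEG replicate 2 or PBS replicate 1 (edgeR adjusted p = 0.0896 and 0.0778, in a range from 0.00217 to 0.0896 over all settings but the 1.5-fold test). TAOK1 had 114, 118 and 113 CPM in TPBC-PEG, against 109.8, 104 and 106 CPM in PBS, which do not overlap, and missed the threshold at 0.11 ± 0.044 (SE; edgeR quasi-likelihood, Benjamini-Hochberg adjusted p = 0.0598). It passed with library size alone, upper quartile scaling, the trend on expression level removed, and protein-coding genes alone. TAOK2 averaged 49.2 ± 4.13 CPM in TPBC-PEG and 50.5 ± 3.33 CPM in PBS.

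Of the 6 MAP4 kinase genes, whose products can phosphorylate LATS1 and LATS2 directly, only MINK1 was called. That is 16.7%, against 33.2% of all genes tested. MINK1 (ENSG00000141503, chromosome 17, 4833388 to 4898061) had 77.2, 67.0 and 74.1 CPM in TPBC-PEG, against 87.4, 90.05 and 81.8 CPM in PBS. All TPBC-PEG values were below all PBS values, with a log2 fold change of -0.25 ± 0.052 (SE; edgeR quasi-likelihood, Benjamini-Hochberg adjusted p = 0.000147). MAP4K4, its closest relative together with TNIK, averaged 339.99 ± 5.65 CPM in TPBC-PEG and 345 ± 15.7 CPM in PBS, with a 95% interval of the log2 difference from -0.094 to 0.057. TNIK averaged 55.7 ± 3.39 CPM in TPBC-PEG and 58.8 ± 4.65 CPM in PBS. Within these 3 genes per kilobase, MAP4K4 took 64.2% ± 0.945 in TPBC-PEG and 61.6% ± 1.54 in PBS, and MINK1 21.0% ± 1.15 in TPBC-PEG and 23.7% ± 1.55 in PBS (SD, n = 3). The MAP4K4 shares lay narrowly apart between the groups, and the MINK1 shares overlapped. The lowest MAP4K4 share in TPBC-PEG was 63.6% and the highest in PBS 63.3%. MAP4K5 averaged 229.98 ± 5.62 CPM in TPBC-PEG and 235 ± 6.97 CPM in PBS, MAP4K3 95.5 ± 6.49 CPM in TPBC-PEG and 90.6 ± 1.08 CPM in PBS, and MAP4K2 16.03 ± 2.83 CPM in TPBC-PEG and 17.7 ± 0.935 CPM in PBS. Without TPBC-PEG replicate 3, MAP4K3 passed as higher and MAP4K2 as lower (edgeR adjusted p = 0.0432 and 0.0366).

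None of the Ajuba LIM adaptor genes was called, and none of the enzymes that mark YAP for breakdown. Over all genes tested 33.2% were called. LIMD1, with the smallest p of the adaptors, had 81.0, 78.4 and 82.3 CPM in TPBC-PEG, against 76.0, 77.9 and 70.1 CPM in PBS. The lowest TPBC-PEG library stood just above the highest PBS library, and the log2 difference was 0.11 ± 0.050 (SE; edgeR quasi-likelihood, Benjamini-Hochberg adjusted p = 0.0979). LIMD1 took 42.4% ± 1.97 of the 3 adaptors per kilobase in TPBC-PEG and 38.8% ± 1.89 in PBS (SD, n = 3). AJUBA averaged 49.1 ± 3.58 CPM in TPBC-PEG and 52.5 ± 1.28 CPM in PBS. WTIP averaged 6.12 ± 1.32 CPM in TPBC-PEG and 6.87 ± 0.792 CPM in PBS, and its interval for the log2 difference, -0.48 to 0.13, was the widest toward lower values among the genes not called. The casein kinases encoded by CSNK1D and CSNK1E phosphorylate YAP after LATS, and BTRC encodes the ubiquitin ligase subunit that then binds it. CSNK1D, with the smallest p of these 3, had 110.4, 102 and 113 CPM in TPBC-PEG, against 112, 118 and 113 CPM in PBS, at -0.078 ± 0.046 (SE; edgeR quasi-likelihood, Benjamini-Hochberg adjusted p = 0.198). TPBC-PEG replicate 2 was the lowest of the 6, and the highest TPBC-PEG value lay within the PBS range. CSNK1E averaged 69.3 ± 1.91 CPM in TPBC-PEG and 67.3 ± 3.10 CPM in PBS. BTRC averaged 38.5 ± 0.721 CPM in TPBC-PEG and 38.4 ± 2.09 CPM in PBS, with a 95% interval of the log2 difference from -0.12 to 0.14.

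The genes that rose and those that fell differed in base composition. Transcripts of the 6 that rose had a GC content of 43.0% to 46.4% (median 43.3%). The 8 that fell had a median of 60.4%, with DLG1 at 40.8% and FAT1 at 46.9% as the exceptions below the 53.7% of WWC1, up to 66.6% for SCRIB. Over all genes tested the medians were 45.6% for those higher, 51.1% for those lower and 49.1% for those not called. Across the 42 genes the fold change and GC content had Pearson's r = -0.481 and Spearman's rho = -0.459, a description across genes that share the same 6 libraries. Over 15720 tested genes with a known GC content rho was -0.148. With the GC trend removed from every library, rho across the 42 genes was -0.128, and 4 were called higher and 9 lower, against 15.2% higher and 18.9% lower of all genes. FAT4, STRIP2, TAOK3, CTTNBP2NL, FAT1, SCRIB, MINK1, STK25, WWC1 and DLG1 were called again, while MAP4K5, MOB4 and STK26 passed as lower. SCRIB then stood at -0.21 and FAT1 at -0.40. Whether GC content has a part in these differences was not tested beyond this removal of the trend.

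**Figure D4:**
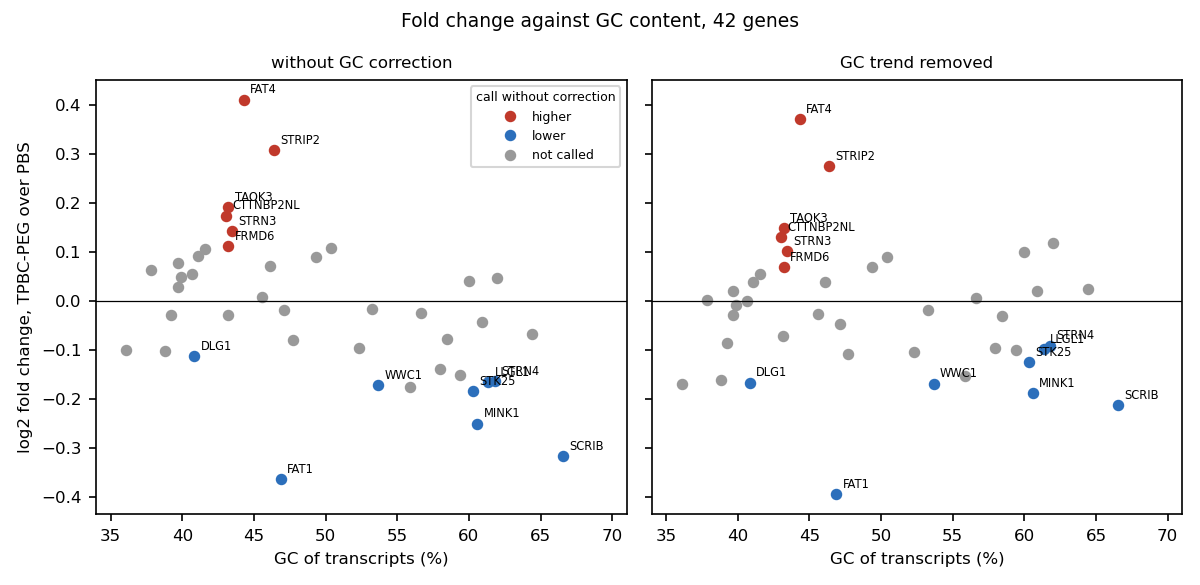
Log2 fold change of TPBC-PEG over PBS (y axis) against the GC content of the transcripts in percent (x axis) for the 42 genes, as measured (left) and with the GC trend removed (right); colours give the call without correction. The 6 genes that rose lie between 43.0% and 46.4% GC, and the downward slope on the left (rho -0.459) is shallower on the right (rho -0.128), where FAT1 stays the lowest.

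Over 19 other settings of the analysis, 8 calls held in all but the test against a 1.5-fold change: those of FAT4, STRIP2, CTTNBP2NL, FAT1, SCRIB, MINK1, STK25 and WWC1. Tested against a 1.5-fold change, 0 of the 42 genes passed (edgeR glmTreat; 0 at an unadjusted p under 0.05), where 145 of all genes, or 0.915%, did. With library size alone in place of TMM, 11 of the 42 were higher and 5 lower, and over all genes 3213 (20.3%) were higher and 1971 (12.4%) lower, which made 62.0% of calls higher, against 2574 higher and 2682 lower, or 49.0% higher, with TMM. With the trend on expression level removed, 10 of the 42 were higher and 7 lower, against 16% and 15.9% of all genes, and with the replicate number as a block 5 were higher and 8 lower, against 16% and 16.7%. Every called gene kept its sign in every setting. Of the 28 genes not called, 17 were called in none of the settings and 11 in at least 1.

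**Figure D5:**
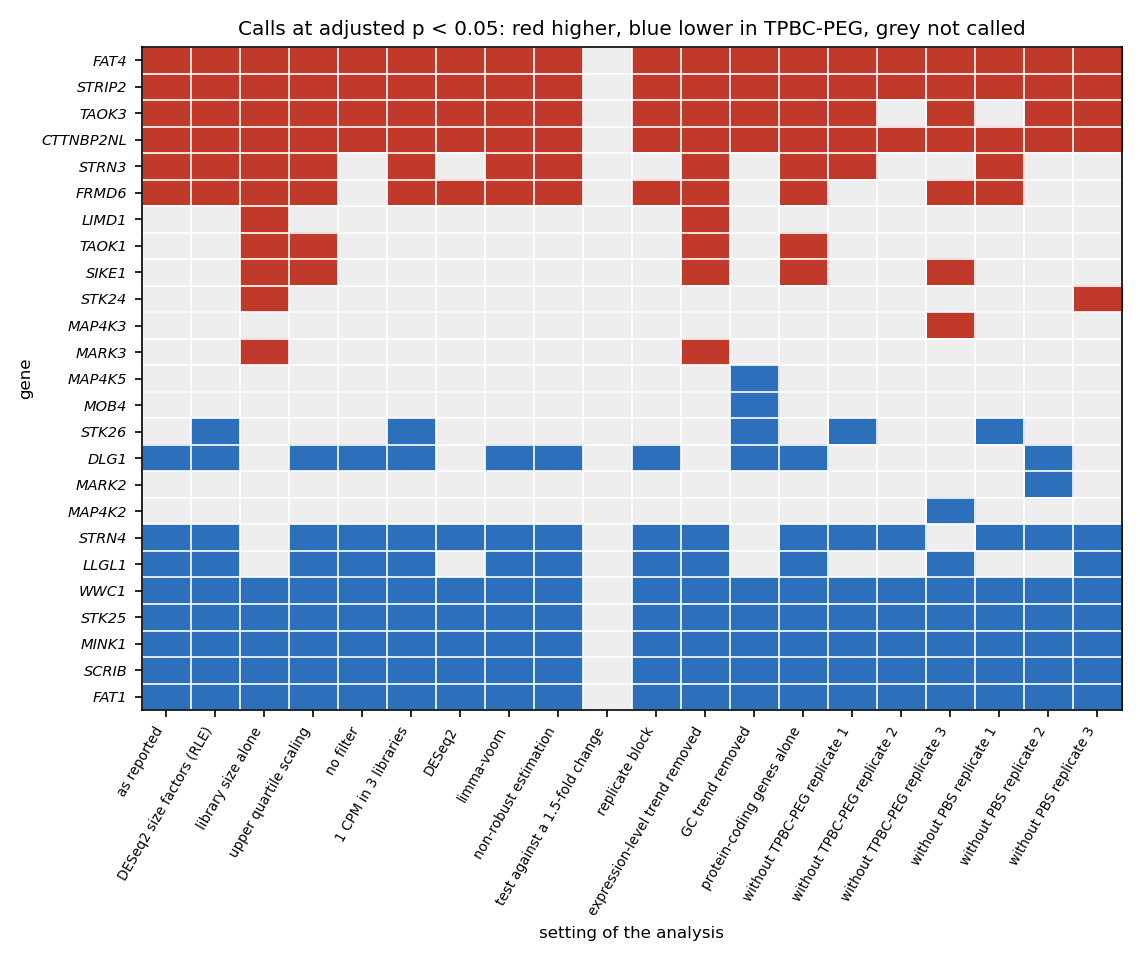
Calls at an adjusted p under 0.05 (red higher, blue lower in TPBC-PEG, grey not called) for the 25 genes called in at least 1 setting (y axis, ordered by fold change) under the reported analysis and 19 other settings (x axis). FAT4, STRIP2, CTTNBP2NL, FAT1, SCRIB, MINK1, STK25 and WWC1 are coloured in every column but that of the 1.5-fold test.

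Other genes of these complexes, from lists chosen with earlier results of these data known, included called genes at shares to be read against the 33.2% called, 16.2% higher and 16.9% lower, of all genes tested. Of 8 measured genes of PP2A, CCM and the remaining STRIPAK subunits 3 fell and 0 rose. The share lower was 37.5%, against 16.9% of all genes tested. With 8 genes from a list chosen this way, the count is a description. PPP2R1A, the PP2A scaffold subunit that striatins bind, averaged 108 ± 1.66 CPM in TPBC-PEG and 133 ± 1.19 CPM in PBS, at -0.31 ± 0.043 (SE; adjusted p = 6.94e-08 by the edgeR quasi-likelihood test), and PPP2CA, a catalytic subunit, was at -0.19 ± 0.040. PPP2CB, which encodes the other catalytic subunit and was picked out after its values were seen, averaged 82.7 ± 5.83 CPM in TPBC-PEG and 82.6 ± 5.72 CPM in PBS and was not called. Of 18 Hippo core genes 5 fell and 0 rose, so 27.8% were lower, against 16.9% of all genes tested. This list was chosen in the same way, and its count is a description too. AMOTL2, at -0.46, and NF2, the merlin gene, at -0.29 ± 0.058, led the falls. FJX1, the homologue of the Drosophila kinase Four-jointed that modifies Fat and Dachsous, averaged 27.0 ± 1.99 CPM in TPBC-PEG and 38.2 ± 2.32 CPM in PBS, at -0.51 ± 0.071, and FAT3, at 1.03 ± 0.495 CPM in TPBC-PEG and 2.30 ± 0.471 CPM in PBS, was at -1.16 ± 0.30 (SE; by the edgeR quasi-likelihood test, adjusted p = 9.2e-08 and 0.00221). These were the 2 genes tested of a list of 4, made up of FAT2, FAT3, DCHS2 and FJX1, and both fell. FAT3 rested on few reads, 31, 14 and 13 in TPBC-PEG and 44, 50 and 29 in PBS. Its log2 fold change ran from -1.64 to -0.90 over the other settings, and its call held in all but the 1.5-fold test. Of 8 measured LIM and junction genes 37.5% were called: 1 rose, CTNNA1 at 0.11, and 2 fell, the zyxin gene ZYX at -0.39 ± 0.049 and LPP at -0.19. The CTNNA1 call was lost without TPBC-PEG replicate 2 or 3 or PBS replicate 1 (edgeR adjusted p = 0.148, 0.0525 and 0.0970, in a range from 0.000121 to 0.148 over all settings but the 1.5-fold test).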

How the data were processed

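The authors deposited raw read counts per gene in 1 table with a column for each of 6 libraries, named as in the sample descriptions. The submitters' processing notes name HISAT2 and GRCh38; for the counting program, annotation and strand setting the sources used here give nothing. Exons of another annotated gene, on either strand, cover more than 10% of the exon length of 7 of the 42 genes; reads there may be shared, and without strand this includes genes on opposite strands. Of the table's rows 0 named no gene. Exon lengths, overlaps and transcript GC content came from GENCODE release 29 (GRCh38), and promoters from RefSeq.

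Counts were analysed with edgeR 4.0.16 in R 4.3.3: filterByExpr (minimum count 10, minimum total 15) left 15846 genes, libraries were scaled by TMM, and glmQLFit with robust estimation and glmQLFTest compared TPBC-PEG with PBS with no covariate. Benjamini-Hochberg adjustment covered all genes tested, and called means an adjusted p under 0.05. SE came from the F statistic and 95% intervals from its t quantile. Other settings were 3 scalings (DESeq2 size factors, upper quartile, library size alone), 2 filters, DESeq2 1.42.0, limma-voom (limma 3.58.1), non-robust estimation, a 1.5-fold test, a replicate block, lowess removal (span 0.3) of trends with expression level or GC content, protein-coding genes alone, and each library left out.

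Data simulated for this comparison (15451 genes, 200 changed) gave back 54% of the genes changed 1.25-fold, 86% of those changed 1.5-fold, 96% of those changed 2-fold and 98% of those changed 4-fold, with 13 false among 180 calls. A read is not a molecule, so intervals that rest on counting understate the error. Every called gene is given in full, and in groups with none the gene of smallest p; of each other list up to 2 called genes a direction were named. The 42 genes and all lists were chosen with earlier results of these data known.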

Additional observations from a re-analysis of the deposited data

How the results depend on the processing

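The numbers of genes called higher among the 42 were 11 with library size alone, 10 with the expression-level trend removed and 0 with the 1.5-fold test, against 6 as reported; those called lower were 5 with library size alone and 0 with the 1.5-fold test, against 8. Over all genes the 1.5-fold test called 131 higher and 14 lower. Leaving out 1 library gave 3 to 7 higher and 6 to 8 lower of the 42, the lowest count of 3 without TPBC-PEG replicate 2, and 1987 to 2347 higher and 2141 to 2515 lower of all genes (12.3% to 14.5% and 13.3% to 15.6%). Deviations of same-numbered libraries from their group means had r of 0.00336, 0.0646 and -0.0154, against -0.0548 to 0.0509 for the other pairs. With 3 libraries a group, such values cannot exclude pairing or a shared batch, and the labels give no block beyond the replicate number. With the replicate block 5 of the 42 were higher and 8 lower, and the call of STRN3 was lost (edgeR adjusted p = 0.0507). With library size alone WWC2 (0.014), WWC3 (0.026), MAP4K4 (0.025), MAP4K5 (0.014) and DLG5 (0.018) turned from lower to higher, and with the expression-level trend removed WWC2 (0.0054), MAP4K4 (0.060) and MAP4K5 (0.038) did. With the GC trend removed TAOK2 (0.021), DLG5 (0.0057) and STK11 (0.023) turned higher and STRN (-0.029), SLMAP (-0.0010), PDCD10 (-0.0087) and BTRC (-0.027) lower. Leaving out a library turned WWC3 (from -0.11 to 0.089 over the 6 fits), DLG5 (-0.064 to 0.0074), TAOK2 (-0.10 to 0.016), MAP4K4 (-0.056 to 0.013) and BTRC (-0.034 to 0.040). None of these genes was called in a setting that turned it, and the cause was not tested. The simulation recovered 54% of the genes given its smallest fold, but it changed only 200 of 15451 genes, where 33.2% were called in the data. Its genes were drawn from all levels above 1 CPM, while the 42 genes had a median of 70.8 CPM, against 19.5 over all genes tested. The 54% is therefore no estimate for the 42 genes, although small changes can be missed.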

Other observations

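The partners of LKB1 and of the YAP phosphodegron, from lists chosen with earlier results of these data known, included called genes at shares to be read against the 33.2% called of all genes tested. Of 11 LKB1 partners and targets 1 rose and 1 fell (18.2% called). NUAK1, a kinase activated by LKB1, averaged 33.4 ± 2.99 CPM in TPBC-PEG and 42.8 ± 2.53 CPM in PBS (SD, n = 3), at -0.36 ± 0.068 (SE; edgeR quasi-likelihood, Benjamini-Hochberg adjusted p = 3.77e-05). PRKAA2, a catalytic subunit of AMPK, rose by 0.15 ± 0.056, a call lost without TPBC-PEG replicate 1 or 3 and without PBS replicate 2 or 3 (edgeR adjusted p = 0.176, 0.0921, 0.119 and 0.156, in a range from 0.00554 to 0.225 over all settings but the 1.5-fold test). Of 5 phosphodegron partners 40% were called: FBXW11, the paralogue of BTRC, rose by 0.16 ± 0.043 and RBX1, the RING subunit of the same ligases, was at -0.19 ± 0.063. The RBX1 call was lost without TPBC-PEG replicate 2 or PBS replicate 1 (edgeR adjusted p = 0.0651 and 0.0758, in a range from 0.00215 to 0.0758 over all settings but the 1.5-fold test).

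Among 21 measured polarity genes outside the Scribble module 2 rose and 1 fell (14.3% called). PARD6B, a PAR6 polarity adaptor, averaged 10.4 ± 1.80 CPM in TPBC-PEG and 5.39 ± 0.586 CPM in PBS (SD, n = 3), a log2 fold change of 0.96 ± 0.14 (SE; adjusted p = 2.07e-07 by the edgeR quasi-likelihood test), and was higher in 3 of 3 TPBC-PEG libraries than in any PBS library. ERBIN rose by 0.21 ± 0.040 and LIN7A, a junction scaffold, was at -0.36 ± 0.084. Of 9 measured upstream kinase, RASSF and RAP2 genes 33.3% were called: RAP2A and STK10 rose, by 0.20 and 0.16, and RAP2B was at -0.21; RAP2 GTPases activate MAP4 kinases. The RAP2A call was lost without TPBC-PEG replicate 2 (edgeR adjusted p = 0.0923), and the STK10 call without TPBC-PEG replicate 3 and without PBS replicate 1 or 3 (0.205, 0.167 and 0.136); over all settings but the 1.5-fold test the adjusted p ran from 0.00182 to 0.0923 for RAP2A and from 0.00431 to 0.205 for STK10.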
